A study of Homo sapiens with 12 samples.

Results

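The response to 72 h of N1-ICD induction was followed in MB157R cells by mRNA sequencing. The construct is named after the intracellular and active form of the NOTCH1 receptor. MB157 is a triple-negative breast cancer (TNBC) cell line, and MB157R is its derivative that became resistant to the gamma-secretase inhibitor (GSI) LY3039478 during 25 weeks of culture in 1 µM of the drug. The comparison uses 6 of the 12 libraries of the series, chosen by their labelled genotype and treatment: 3 libraries of MB157R carrying the inducible N1-ICD construct (iN1-ICD) and 3 of MB157R carrying the empty vector (iEV). The other 6 libraries come from MB157 with and without induced SOX2, and they enter only the last comparison.

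Both groups share the MB157R background and both received doxycycline at 1 µg/ml, and their lentiviral vectors differ by the insert. The groups are different transduced lines, so the insert and anything else that differs between these lines cannot be told apart. The insert, which the study names N1-ICD, is a human NOTCH1 that lacks the extracellular domain, under a doxycycline-responsive promoter with an HA tag. The study describes the NOTCH1 of MB157 cells, which lacks that domain but keeps the transmembrane part, as sensitive to GSI. It does not state if the insert also needs gamma-secretase to become active. Whether the transduced lines are clones or pools, and whether GSI was present when RNA was taken, is not given in the sources used here. The study calls the 3 replicates of a group biological replicates, and the labels do not say how they were kept apart, so p-values cover the spread between these libraries.

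A Notch receptor that binds a ligand on a neighbouring cell is cut by gamma-secretase, and its intracellular domain moves to the nucleus, where it joins the DNA-binding protein RBPJ and the coactivator MAML to switch on target genes. The best known targets are the HES and HEY genes, which encode transcriptional repressors. In stratified epithelia Notch drives cells out of the basal layer toward differentiation, and in TNBC activating NOTCH1 lesions make tumour cells dependent on the pathway. SOX2, a transcription factor of stem cells, came out of the study's search for mechanisms of GSI resistance, and the induction of N1-ICD asks how Notch activity acts on it.

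The Notch targets that carry the comparison can be looked at in their sequence. RBPJ recognises the core TGGGAA, so the bases just upstream of the annotated start of 5 HES and HEY genes and of 2 strongly rising epithelial genes are given here, 5′ to 3′ on the strand of the gene, with TGGGAA or its complement TTCCCA in capitals. The windows are RefSeq sequence of GRCh38.p14, and none reaches the transcript. The HES1 window is chr3:194136044-194136103 (plus strand), that of HES4 chr1:1000148-1000207 (minus), that of HES5 chr1:2530318-2530507 (minus), that of HEYL chr1:39639717-39639841 (minus), that of HEY2 chr6:125749385-125749444 (plus), that of IVL chr1:152908344-152908403 (plus) and that of OLFM4 chr13:53028563-53028622 (plus).
HES1: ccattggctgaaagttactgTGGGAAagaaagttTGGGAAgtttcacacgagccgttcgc
HES4: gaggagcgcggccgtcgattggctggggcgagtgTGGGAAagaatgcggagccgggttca
HES5: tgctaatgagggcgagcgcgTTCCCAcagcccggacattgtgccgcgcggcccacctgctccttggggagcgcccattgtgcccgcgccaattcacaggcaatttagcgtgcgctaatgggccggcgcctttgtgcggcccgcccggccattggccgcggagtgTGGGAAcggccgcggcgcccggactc
HEYL: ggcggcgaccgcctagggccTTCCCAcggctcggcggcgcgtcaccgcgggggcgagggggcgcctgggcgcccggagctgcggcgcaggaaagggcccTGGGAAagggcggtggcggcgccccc
HEY2: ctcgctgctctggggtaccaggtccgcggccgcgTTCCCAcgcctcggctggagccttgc
IVL: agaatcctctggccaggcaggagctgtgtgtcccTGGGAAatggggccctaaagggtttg
OLFM4: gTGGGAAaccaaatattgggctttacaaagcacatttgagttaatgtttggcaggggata

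HES1, HES5 and HEYL each hold 2 matches within 250 bases of the start, and HES4, HEY2, IVL and OLFM4 hold 1. In HES1 the matches begin 84 and 70 bases upstream, in HES4 76 bases and in HES5 224 and 80 bases upstream. A match of 6 letters is common: 1786 of the 9205 tested genes with a RefSeq window, or 19.4%, hold it on either strand. Of the 502 genes that rose at least 2-fold only 371 have a window. Of these 371 genes 72 (19.4%) hold the match, the same share as among the tested genes. Of the 77 that fell at least 2-fold 54 have a window, and 7 of these 54 hold it. The windows cover under 80% of the genes in both cases, and the shares were not tested against each other. The windows printed above were all of genes that hold a match, so they do not show how common it is among risen genes.

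The 6 libraries held between 39608497 and 49055204 estimated counts. The genes in the table that the authors filtered took 92.8% to 93.9% of the counts in each library, and ribosomal RNA entries took 0.673% to 1.64%. The first principal component took 88.6% of the variance and separated the groups. All 10 mammary epithelial markers were present in every library and tested, of which 8 rose and 1, EPCAM, fell, though it stayed at 318 to 380 CPM, which is counts per 1000000 counts of a library after TMM scaling, in all 6 libraries.

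NOTCH1 itself was 25.3-fold higher after induction. It was at 2602, 1756 and 2582 CPM in the iN1-ICD libraries and at 101, 84.9 and 88.7 CPM in the iEV libraries. The lowest induced library thus lay far above the highest control, and the log2 fold change was 4.66 ± 0.15 (SE), with an adjusted p of 1.3e-09 in edgeR's quasi-likelihood test with Benjamini-Hochberg adjustment, the test behind every call below. Counts per gene do not separate the transgene from the cell's own NOTCH1. In RNA from a whole culture, a change in the number of cells that express a gene and a change in RNA per cell cannot be told apart, here and in all results that follow.

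The response reached far into the transcriptome but was small for most genes. Of 11210 tested genes, 6621 (59.1%) were called at an adjusted p under 0.05, 3337 (29.8%) higher and 3284 (29.3%) lower, while 4589 were not called. The groups did not overlap at 7284 genes (65.0%). Among called genes 79.6% changed by less than 1.5-fold, and the median log2 fold change over all tested genes was -0.00141.

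Large changes went mainly one way. At least 2-fold, 502 genes (4.48%) rose and 77 (0.687%) fell; at least 4-fold, 191 rose and 9 fell; at least 16-fold, 54 rose and 2 fell. The 2 that fell at least 16-fold are the collagenase gene MMP13 and the small nuclear RNA RNU1-2, named after its values were seen, which had counts in 2 of the 3 iEV libraries only and whose groups overlap. Genes entered the table on their average level over both groups, so that a gene near 0 in iEV had to be high in iN1-ICD to be tested. Such a gene could be called higher but not lower, which also weighs on the list counts and medians below. Those counts stand beside 29.8% higher and 29.3% lower among all tested genes. The 20 genes with the largest gain in CPM held 30.1% of all the CPM gained by risen genes.

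**Figure D1:**
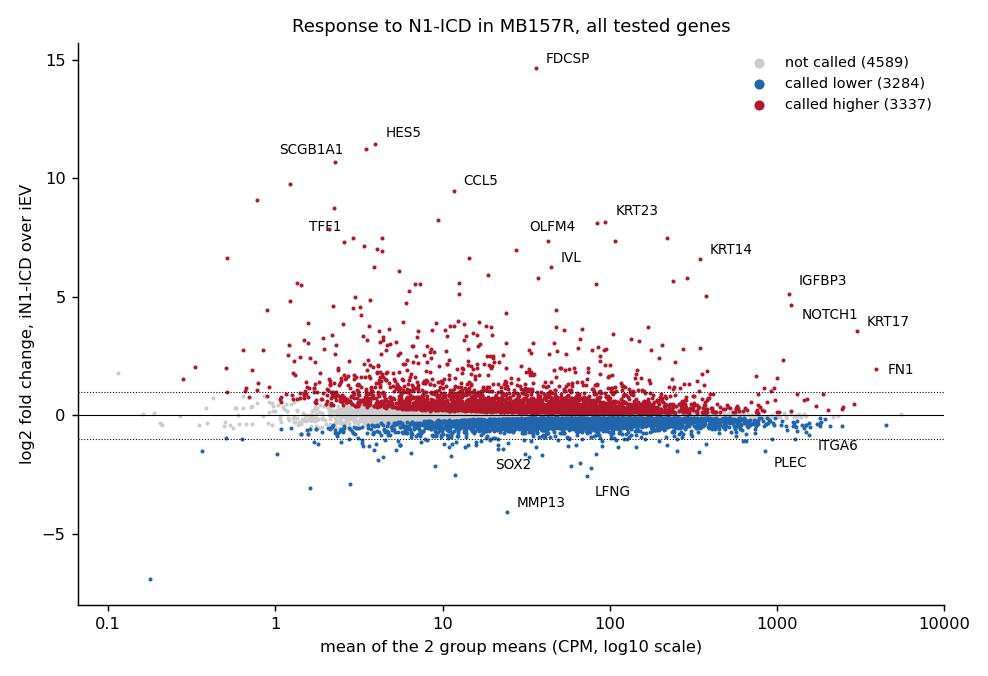
Each point is 1 of the 11210 tested genes, with the mean of the iN1-ICD and iEV group means in CPM on the x axis (log10 scale) and the fitted log2 fold change on the y axis; red points were called higher, blue points lower and grey points were not called, and dotted lines mark 2-fold. The rises reach much farther from 0 than the falls (502 against 77 genes beyond 2-fold); fitted values above about 9 belong mostly to genes with no count in iEV and are not measured folds.

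The HES and HEY repressors rose. Of 12 tested members of the list 9 were called higher and 1 lower, with a median log2 fold change of 0.65 against -0.00141 over all tested genes. HES5 was at 8.32, 6.50 and 8.91 CPM after induction and had no count in any control library, which makes it at least 355-fold higher against a floor of 3 counts over the control group. HEY1 was at 7.12, 5.60 and 6.38 CPM against 0.888, 0.608 and 0.614 CPM, 9.05-fold higher. Neither pair of groups overlapped, but both genes began from almost nothing.

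The members that were already expressed rose less. HES2 went from 20.3 ± 2.0 to 81.2 ± 2.90 CPM (SD, n = 3 in each group here and below), HES4 from 24.7 ± 1.57 to 64.5 ± 3.93 CPM and HES1 from 44.7 ± 3.11 to 68.9 ± 1.42 CPM, that is 1.54-fold. TLE4, a corepressor that HES proteins recruit, was the member called lower, at a log2 fold change of -0.16, a call that was lost without iEV replicate 3. HEY2 and HEYL, which the authors' filter removed, had 75 and 131 counts over the 3 iN1-ICD libraries and none in iEV, so they were at least 26-fold and 45.5-fold higher. RBPJ, the DNA-binding partner, was at 98.9 ± 4.50 CPM after induction and 97.5 ± 3.70 CPM in the control, a log2 fold change of 0.02 ± 0.05, and was not called.

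Within the pathway the receptors, ligands and modifiers did not move as a group: of 30 tested genes 7 rose and 10 fell. NOTCH3, a second receptor, rose 3.28-fold to 158 ± 16.8 CPM, and NRARP, a feedback inhibitor of Notch complexes, rose 6.45-fold to 83.2 ± 11.9 CPM. DTX4, a ubiquitin ligase of the Deltex family, rose 2.24-fold. The ligands that the cells express fell: DLL1 3.08-fold, JAG2 1.97-fold and JAG1 1.28-fold. LFNG, a glycosyltransferase that tunes how Notch reads its ligands, was at 20.9, 22.2 and 20.7 CPM after induction against 125, 131 and 121 CPM, 5.91-fold lower. The ligand DLL4 went the other way, from 57 to 749 counts over 3 libraries, though the filter had removed it.

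**Figure D2:**
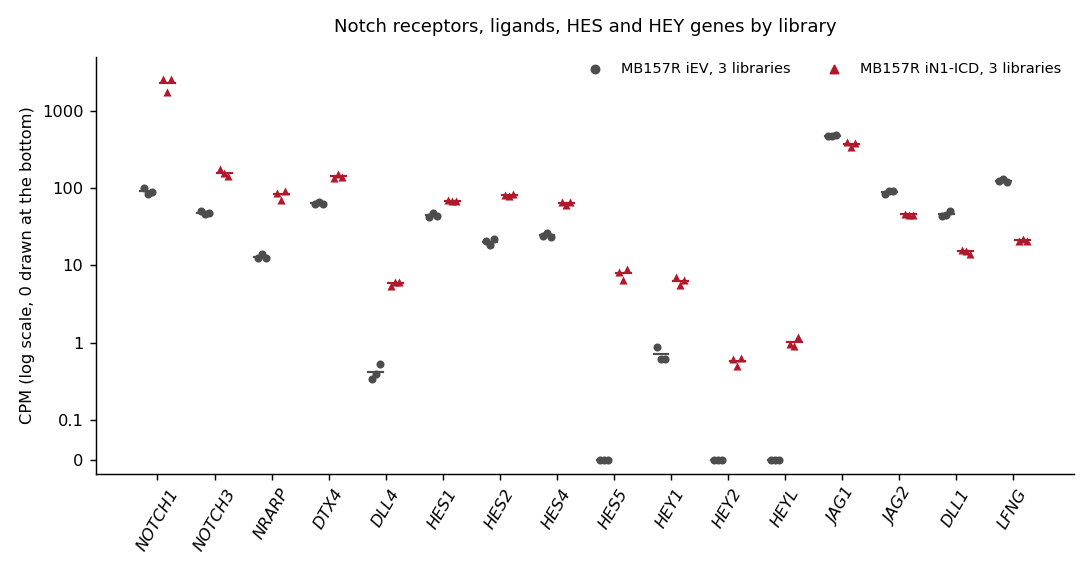
CPM of 16 Notch pathway, HES and HEY genes in each library (log axis, 0 drawn at the bottom), with grey circles for the 3 iEV libraries, red triangles for the 3 iN1-ICD libraries and a bar at each group mean. NOTCH1 and the HES and HEY genes are higher in every induced library, with HES5, HEY2 and HEYL at 0 in all 3 controls, while JAG1, JAG2, DLL1 and LFNG are lower.

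Of the 77 genes of the NOTCH signature 75 were tested; 74 were called higher and 1, JAG1, lower, with a median log2 fold change of 1.78. Part of this list was selected by the study from the fold changes of these same 6 libraries, so its direction is no independent evidence. HEY2 and HEYL are its members outside the table. Genes described below stand in it too, such as PI3, ZNF750, OLFM4, MMP7, IGFBP3, DSG3, CXCL2, BMP6, INHBB and DUSP5. So do GADD45A, SAT1, ANKRD1, FGFBP1, SNAI1, PMAIP1, MYC, MYCL and CCND1, and the same limit may hold for each.

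SOX2 fell. It was at 19.1, 19.9 and 17.2 CPM after induction and at 61.8, 65.1 and 52.6 CPM in the control, which is 3.19-fold lower, with a log2 fold change of -1.67 ± 0.08 and an adjusted p of 4.0e-08 in edgeR's test. The groups did not overlap. Of 7 tested SOX genes 1 rose and 2 fell: SOX9, a factor of epithelial progenitors, went from 178 ± 1.74 to 486 ± 7.29 CPM, and SOX7 fell by 0.56 on the log2 scale.

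Of 19 tested markers used for cancer stem cells 11 fell and 5 rose, with a median log2 fold change of -0.19. When all entries with a mean count of at least 5 were tested, 11 fell and 9 rose. ITGA6, the integrin alpha 6 chain that is used to sort stem-like cells, went from 1986 ± 152 to 1104 ± 34.7 CPM, 1.80-fold lower. NT5E (CD73) and ITGB1 fell 1.51-fold and 1.48-fold. The largest rises of the list were L1CAM, a neural adhesion molecule, at 5.66-fold, and the intermediate filament gene NES at 2.64-fold. ALDH1A3, which underlies much of the aldehyde dehydrogenase activity used to mark breast cancer stem cells, rose 1.40-fold, from 2408 ± 253 to 3371 ± 125 CPM. Outside the filtered table LGR5 and CXCR4, named after their values were seen, rose 5.13-fold and 4.61-fold to 5.83 ± 0.457 and 2.26 ± 0.118 CPM.

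Keratins had the largest median change among the gene lists with at least 10 tested members. Keratins are the intermediate filaments of epithelial cells and change with the type and stage of the epithelium. Of 20 tested keratin genes 17 rose, 14 of them at least 2-fold, and 3 fell, with a median log2 fold change of 3.31. KRT5, KRT6A, KRT6B, KRT6C and KRT75 stand in the NOTCH signature, which was partly selected on these libraries.

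KRT14, the keratin of basal cells, was at 688, 627 and 743 CPM after induction and at 7.2, 6.74 and 7.56 CPM in the control, 95.8-fold higher. KRT16, induced in activated and hyperproliferative epidermis, was at 483, 444 and 485 CPM against 9.18, 9.42 and 9.21 CPM, and KRT6A, its usual partner, rose 32.8-fold. KRT23 went from under 1 CPM in every control library to 184, 185 and 189 CPM, a rise of 288-fold, and KRT75, a hair follicle keratin, rose 161-fold. The groups stood apart by more than an order of magnitude at all of these.

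Keratins that the control already made in quantity changed less. KRT17 went from 475 ± 8.92 to 5561 ± 665 CPM (11.7-fold) and KRT5 from 502 ± 40.7 to 1504 ± 227 CPM (3.00-fold). The simple epithelial pair KRT8 and KRT18 rose 1.86-fold and 2.20-fold. KRT7, KRT10 and KRT80 were the ones that fell, by 0.47, 0.72 and 0.73 on the log2 scale. KRT10 marks cells of the epidermis that have left the basal stage. KRT6A, KRT6B and KRT6C are near-identical copies, as are parts of KRT14, KRT16 and KRT17, so the counts of each depend on how the authors' quantification divided shared reads.

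**Figure D3:**
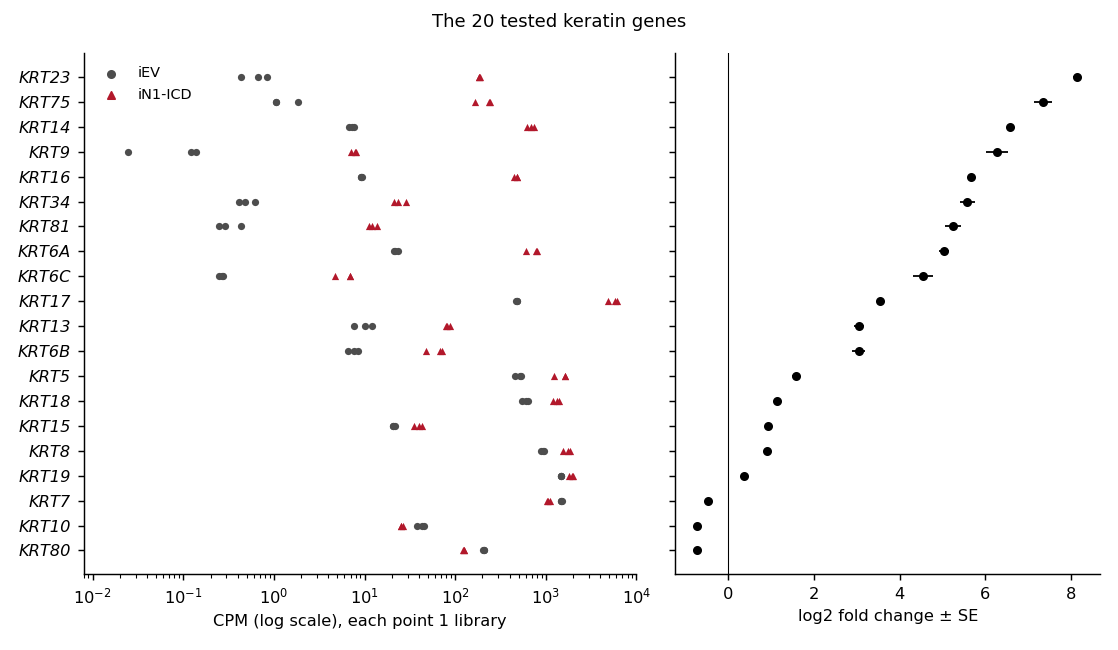
The left panel gives the CPM (log axis) of the 20 tested keratin genes in each of the 3 iEV (grey circles) and 3 iN1-ICD libraries (red triangles), and the right panel gives each log2 fold change with its SE. From KRT19 upward every induced library lies above the controls, up to a log2 fold change of 8.14 for KRT23, and KRT7, KRT10 and KRT80 lie below 0.

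Genes of squamous differentiation rose in part. Of 28 tested 17 rose, 15 of them at least 2-fold, and 4 fell, with a median of 1.21. IVL, the involucrin of the cornified envelope, was at 86.4, 76.7 and 101 CPM after induction against 0.934, 0.998 and 1.52 CPM, 76.7-fold higher. PI3, an elastase inhibitor cross-linked into that envelope, rose 54.7-fold to 566 ± 61.3 CPM, and ZNF750, a transcription factor of late differentiation, rose 68.0-fold to 10.8 ± 0.264 CPM. These 3 genes were close to silent, or low, in iEV and did not overlap between the groups.

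The members that fell include regulators. TP63, the master factor of the basal layer, fell 1.34-fold to 174 ± 7.75 CPM, KLF4 fell 1.17-fold and OVOL1 fell by 0.57 on the log2 scale, while SCEL, the sciellin of the envelope, fell 1.80-fold. The kallikreins, proteases that shed the outer epidermis, had 2 tested genes and both fell: KLK6 8.35-fold and KLK5 4.45-fold. GRHL3, a factor needed for the skin barrier, rose 6.63-fold.

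Cell junction genes moved up more often than down. Of 31 epithelial junction genes 18 rose and 7 fell, and of 11 desmosome genes 6 rose and 3 fell, with medians of 0.20 and 0.38. The desmosomal proteins PKP1 and DSG3 rose 7.03-fold and 2.88-fold, and the tight junction proteins OCLN and CLDN4 rose 2.36-fold and 1.84-fold. CDH1, the E-cadherin, went from 303 ± 8.81 to 382 ± 22.0 CPM (1.26-fold). The catenin gene CTNNB1 fell by 0.47 on the log2 scale. CLDN3, a claudin that the study followed, had 9 counts over the 3 induced libraries and none in the controls, too few to place.

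The EMT genes did not move one way. Of 17 tested factors that control epithelial-to-mesenchymal transition (EMT), 9 rose and 5 fell, and the list holds keepers of the epithelial state as well as drivers of the transition: GRHL1, GRHL3, OVOL2, ELF3 and KLF5 rose, and GRHL2, OVOL1 and EHF fell; the 5 became 3 when either iN1-ICD replicate 1 or 3 or iEV replicate 1 or 3 was left out. CDH2, the N-cadherin, was at 224, 237 and 220 CPM after induction against 332, 345 and 337 CPM, 1.49-fold lower, and VIM fell 1.36-fold, from 634 ± 18.3 to 465 ± 19.3 CPM. SNAI1 rose 3.04-fold but only to 4.57 ± 0.172 CPM, and ZEB2 rose 1.79-fold. TWIST1 rose 1.15-fold, a call that was lost in a fit over all 12 libraries. SNAI2 was at 51.8 ± 1.94 CPM after induction and 49.7 ± 2.16 CPM before, and was not called (log2 fold change 0.06 ± 0.05).

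Matrix genes were equally divided: of 41 mesenchymal and matrix genes 16 rose and 16 fell. FN1, the fibronectin, had one of the largest gains of any gene, from 1606 ± 129 to 6235 ± 594 CPM (3.88-fold), and BGN, a matrix proteoglycan, rose 15.5-fold from under 1 CPM. CAV1, the caveolin of membrane pits, fell 2.11-fold from 854 ± 29.1 to 404 ± 4.92 CPM. Fibroblast markers stayed low beside this: 5 of 10 were under 1 CPM in all 6 libraries, DCN and POSTN had no count in any, and the summed level of the list was 170 to 183 CPM in iN1-ICD and 83.8 to 96.1 CPM in iEV, most of it COL1A1; their part in the result was not tested.

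The proteases that cut the matrix changed in both directions. MMP13, a collagenase, was at 2.85, 2.31 and 3.02 CPM after induction against 50.4, 50.6 and 37.3 CPM, 16.9-fold lower and the largest fall of a gene with 10 CPM or more on average. MMP10 fell 4.43-fold, MMP2 2.79-fold and MMP1 1.71-fold. MMP7, the matrilysin of glandular epithelium, rose 13.2-fold from 23.9 ± 5.07 to 315 ± 32.2 CPM, and ADAMTS1 rose 4.84-fold.

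Several genes for adhesion to the basement membrane were lower in RNA. Of 22 integrin and laminin genes 11 fell and 5 rose. ITGB4, which pairs with ITGA6 in the hemidesmosome, fell 2.03-fold from 1252 ± 83.2 to 618 ± 44.9 CPM. COL17A1, the transmembrane collagen of that structure, was at 178, 185 and 162 CPM against 484, 461 and 570 CPM, and PLEC, the plectin that ties it to keratins, at 512, 412 and 397 CPM against 1413, 1041 and 1270 CPM. Both groups stayed apart at each gene, with falls of 2.88-fold and 2.82-fold.

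Secreted mucosal proteins rose at 15 of 18 tested members (83.3%), against 29.8% of all tested genes, with a median of 1.60. Members near 0 in iEV, such as SCGB1A1, TFF1 and CEACAM6, were tested only because they were high in iN1-ICD. The count of members called lower was 0 in edgeR, limma-voom and DESeq2, 0 at an unadjusted p under 0.05, and 1 without iEV replicate 3. Among entries outside the table the mucins MUC2 and MUC5AC, named after their values were seen, fell 4.77-fold and 4.47-fold, from control means of 6.20 and 1.32 CPM. OLFM4, a glycoprotein of intestinal and other epithelia, was at 167, 137 and 200 CPM against 0.820, 0.462 and 0.553 CPM, 275-fold higher. SCGB1A1, the club cell protein of airways, had no count in iEV and 7.28, 6.15 and 7.36 CPM after induction, at least 310-fold higher. TFF1 and CEACAM6 rose from under 0.1 CPM in every control to 5.76 ± 1.34 and 6.75 ± 0.867 CPM. LCN2, abundant in both, rose 1.19-fold.

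In all, 16 genes were at or under 0.1 CPM in every control library and at or above 1 CPM in every induced library, and none showed the reverse. FDCSP, a secreted peptide of follicular dendritic cells and mucosal epithelium, led them at 73.9, 58.0 and 85.9 CPM against no count in any control, at least 3254-fold higher. The others were CCL5, PSG9, MGAT4C, C2CD4A, HES5, SCGB1A1, CEACAM6, TFF1, MARCO, PLA2G5, ETV3L, KRTAP3-1, CCL28, NUPR1 and GKN1.

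Other large changes fell outside these groups. SLC26A9, an anion transporter of epithelia, was at 30.1, 27.9 and 27.6 CPM against 0.342, 0.316 and 0.205 CPM, 99.1-fold higher, and the stress-inducible chaperone gene HSPA6 rose 55.2-fold. KCNAB1, a potassium channel subunit, fell 5.68-fold, and ADAP1 and NAV3 fell by 1.78 and 1.44 on the log2 scale. The greatest loss in CPM was that of the actin gene ACTB, from 5140 ± 195 to 3830 ± 220 CPM, although this is a fall of only 1.34-fold.

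Luminal and basal mammary genes both moved. Of 18 luminal genes 12 rose and 3 fell, with a median of 0.46, and the fallen ones included FOXA1 and ERBB2 at log2 fold changes of -0.31 and -0.37. Of 26 basal and myoepithelial genes 11 rose and 9 fell. IGFBP3, which binds insulin-like growth factors and stands on the basal list, was among the largest gains: 2237, 2315 and 2329 CPM against 62.5, 59.5 and 76.9 CPM, 34.6-fold higher.

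Chemokines rose in every tested case, 10 of 10, with a median log2 fold change of 0.89. CCL5, which attracts T cells, was at 21.4, 25.9 and 22.5 CPM against 0, 0.0243 and 0.0614 CPM. The neutrophil attractants CXCL1 and CXCL2 rose 2.05-fold, from 601 ± 11.1 to 1233 ± 55.8 CPM, and 3.78-fold, from 61.0 ± 2.15 to 230 ± 11.8 CPM. IL8, kept out of the table under its retired symbol, rose 3.46-fold, from 598 ± 12.1 to 2070 ± 69.8 CPM.

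Interleukin-1 family genes rose in 10 of 12 tested cases, with a median of 0.82, and 0 fell in edgeR, limma-voom or DESeq2 or at an unadjusted p under 0.05. IL1B went from 537 ± 36.8 to 989 ± 36.3 CPM. IL36G, the epidermal agonist of the family, rose 10.7-fold, and its antagonists IL36RN and IL1RN rose 47.6-fold and 5.62-fold, so both sides of the ligand balance were higher. Other cytokines were mixed, with 12 of 28 higher and 7 lower: TNF rose 10.3-fold to 6.13 ± 0.450 CPM and CSF2 2.27-fold to 334 ± 14.9 CPM, and CSF3 fell by 0.47 on the log2 scale.

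Among NF-kB pathway genes 16 of 25 rose and 2 fell, with a smaller median of 0.20; the 2 became 1 without iN1-ICD replicate 2 or iEV replicate 1. PTGS2, the inducible cyclooxygenase, rose 3.70-fold to 598 ± 52.6 CPM, and TRAF1 rose 4.82-fold. NFKB1 itself fell by 0.16 on the log2 scale.

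Interferon-stimulated genes rose at 32 of 44 tested members and fell at 5 (3 without iN1-ICD replicate 1), with a median of 0.76. RSAD2, an antiviral enzyme, rose 9.12-fold to 7.92 ± 1.25 CPM, and IFIT3 and CMPK2 rose 3.30-fold and 3.49-fold. UBD, a ubiquitin-like modifier, was at 456, 365 and 485 CPM against 3.03, 2.09 and 2.29 CPM, 176-fold higher. In the class I antigen presentation list 12 of 21 rose and 3 fell, with HLA-B at 2.59-fold and HLA-F at 5.80-fold; HLA genes share reads with their relatives. Leukocyte markers moved beside these genes from low levels: 9 of 12 were under 1 CPM in all 6 libraries, CD3E, MS4A1 and NKG7 had no count in any, PTPRC reached at most 0.176 CPM, and the summed level was 16.3 to 17.7 CPM in iN1-ICD and 4.69 to 6.02 CPM in iEV, most of it CD68; their part in the result was not tested.

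In the EGFR family list 7 of 12 tested genes fell and 2 rose, and outside the table EGF and ERBB4, named after their values were seen, were also called higher. The ligands EREG, HBEGF, EPGN and AREG fell 2.12-fold, 2.01-fold, 1.84-fold and 1.82-fold, whereas EGFR was at a log2 fold change of -0.10 and was not called. ERRFI1, a feedback inhibitor of EGFR, rose 1.78-fold, and the receptor gene ERBB3 rose 1.62-fold. The list of FGF, PDGF and VEGF ligands and receptors went both ways, with 9 of 26 higher and 10 lower. PDGFA, a platelet-derived growth factor chain, was at 36.2, 46.9 and 37.8 CPM against 132, 130 and 113 CPM, 3.10-fold lower, and PDGFB fell 2.50-fold.

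In the same list receptors of vascular growth factors moved in both directions. FLT1, the VEGF receptor 1, was at 83.9, 79.3 and 90.2 CPM against 0.410, 0.706 and 0.430 CPM, 164-fold higher, and it stands in the NOTCH signature. KDR, the VEGF receptor 2, rose 13.6-fold. TEK, the angiopoietin receptor and a member of the endothelial list, went from 0.0639 ± 0.0747 to 18.8 ± 0.868 CPM. The VEGF co-receptor genes NRP1 and NRP2 fell 1.86-fold and 1.89-fold respectively. Of 12 endothelial markers 4 were tested and 3 rose, with a summed level of 62.5 to 68.0 CPM in iN1-ICD and 7.30 to 7.49 CPM in iEV, and outside the table VWF, TIE1 and ESAM were also called higher. The defining markers PECAM1, CDH5, CLDN5, EMCN and ERG stayed under 2 CPM in all 6 libraries, and of these CDH5 was called lower and the others were not called or were too scarce to test.

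ERK feedback genes and immediate-early genes were divided, with 11 of 22 and 12 of 22 higher and 7 lower in each; leaving out iEV replicate 1 or 2 took the second 7 to 4. DUSP5, a nuclear ERK phosphatase, rose 8.87-fold to 268 ± 21.3 CPM. EGR1 fell 3.29-fold and FOSL1 1.82-fold, and ATF3 rose 4.19-fold. In the WNT list 13 of 32 (40.6%) fell and 9 (28.1%) rose, against 29.3% and 29.8% of all tested genes. Its 13 members outside the table had 5 called higher and 2 lower, where 28.5% and 10.8% of all such entries were. AXIN2 and LGR5 were among those called higher. WNT7B was at 26.8, 27.9 and 24.7 CPM against 109, 108 and 100 CPM, with a log2 fold change of -2.0 ± 0.06. In the TGF-beta and BMP list 14 rose and 14 fell of 38, with BMP6 up 10.1-fold, INHBB up 8.91-fold and the BMP antagonist NOG down 2.28-fold. Of 43 genes for ephrins, semaphorins and their receptors 24 fell and 11 rose, led by SEMA3C, 2.30-fold lower at 229 ± 26.6 CPM.

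Mitosis genes were slightly lower. Of 68 tested 52 fell and 2 rose, each by little: the median log2 fold change was -0.24 and none changed 2-fold. BIRC5, CDC20 and FOXM1 fell 1.45-fold, 1.44-fold and 1.40-fold, and TOP2A fell 1.24-fold. The 2 that rose are the phosphatase genes CDC25B (1.95-fold) and CDC25A (1.41-fold), and 4 members rose in DESeq2. Of 55 DNA replication genes 20 (36.4%) rose and 12 (21.8%) fell, against 29.8% and 29.3% of all tested genes, with a median of 0.06. The falls numbered 7 in DESeq2 and without iN1-ICD or iEV replicate 2, and the lists were not tested against each other. CDT1, which licenses origins, rose 1.70-fold.

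MYC, a direct Notch target in other cancers, was at 360, 350 and 370 CPM against 207, 203 and 230 CPM, 1.69-fold higher. CCND1, a cyclin that Notch can induce, went from 1132 ± 39.3 to 1292 ± 60.1 CPM, 1.14-fold higher. MYCL rose 2.50-fold, and MXD1, a partner of MAX that opposes MYC, rose 2.58-fold. Among genes for CDK inhibitors and p53 targets 18 of 32 rose and 7 fell. CDKN2B, the inhibitor p15, rose 2.64-fold, GADD45A, a stress sensor, rose 6.83-fold and SAT1, an enzyme that breaks down polyamines, rose 5.02-fold from 360 ± 12.7 to 1804 ± 54.2 CPM. PMAIP1 (NOXA) and BCL2L11 (BIM), which promote apoptosis, rose 2.11-fold and 1.67-fold, in a list of 30 BCL2 family and caspase genes of which 12 rose and 6 fell (3 without iEV replicate 1).

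Ribosomal proteins and the respiratory chain were slightly lower. Of 81 ribosomal protein genes 40 fell and 5 rose (3 without iN1-ICD replicate 1 or iEV replicate 1), with a median of -0.11, and of 60 oxidative phosphorylation subunits 37 fell and 3 rose (1 without iEV replicate 1 or 3), with a median of -0.21. Among the tested subunits NDUFA4 fell most, 1.79-fold. The list of subunits was drawn up by symbol alone, and outside the filtered set it holds entries that are not subunits, such as ATP5J2-PTCD1. Of its 18 entries there 14 fell and 1, ATP5S, rose, where 10.8% of all such entries and 29.3% of the tested genes fell. Only 755 of the 4786 entries outside the set had a mean count of at least 500, which most of these 18 exceed. ATP5E, named after its values were seen, fell 1.82-fold. Glycolysis and hypoxia genes had 18 of 34 lower and 8 higher, and PKM, the pyruvate kinase, was at 869, 795 and 900 CPM against 1741, 1714 and 1606 CPM, 1.97-fold lower. The unfolded protein response list had 14 of 23 lower and 7 higher, with the chaperone genes HSPA5 and PDIA4 down 1.55-fold and 1.68-fold.

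Amino acid stress genes rose against this. Of 25 tested genes in the list of aminoacyl-tRNA synthetases and amino acid response genes 21 rose and 2 fell (1 without iEV replicate 1), with a median of 0.52. CHAC1, a glutathione-degrading enzyme, rose 4.01-fold, the transporter SLC1A4 3.96-fold and TRIB3, a pseudokinase of the response, 3.59-fold. Many synthetases were left out of the filtered table under retired symbols, and of 19 list members outside it 13 rose and 2 fell, where 28.5% of all such entries rose, with WARS, the tryptophan enzyme, 3.04-fold higher at 279 ± 20.9 CPM.

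Of the entries that the authors' filter left out, 4786 had a mean count of at least 5 over these 6 libraries. In a fit over all such entries 1882 of them (39.3%) were called, 1364 higher (28.5%) and 518 lower (10.8%), with 904 (18.9%) at least 2-fold higher and 99 (2.07%) at least 2-fold lower. A symbol that RefSeq lists only as a synonym was carried by 1115, and by 592 of the 755 with a mean count of at least 500, and IL8, WARS and CTGF are among them. Entries with histone symbols, all outside it, were called lower at 18 of 49, against 10.8% of all such entries and 29.3% of the tested genes. These entries were matched by symbol and include the antisense H1FX-AS1, which was not called, and the pseudogene H3F3AP4, which was called lower.

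The other induction of the series, SOX2 in the parental MB157, shares no library with this one and was set beside it in a single fit over 12 libraries. The fold change from the line's own iEV to its induced group was compared between the inductions, over the 10024 genes present in both authors' tables. The cell line and the induced gene differ together, so their parts in a difference cannot be told apart. The responses differed at 6315 genes (63.0%), 3230 higher and 3085 lower for N1-ICD, and in 468 and 330 of these by at least 2-fold. Across genes the fold changes of the inductions correlated at r = -0.088, which is weak.

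Of the 266 genes that N1-ICD raised at least 2-fold and that are in both tables, SOX2 lowered 126 and raised 89, where it lowered 33.9% and raised 32.3% of all 10024 genes. Of the 32 that N1-ICD lowered at least 2-fold, SOX2 raised 12 and lowered 11. No test of these shares was made.

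The genes at the extremes were chosen for the size of this difference, so opposite directions are partly a matter of the choice. KRT14 rose by 6.58 on the log2 scale with N1-ICD and fell by 1.40 with SOX2, OLFM4 rose by 8.09 and fell by 4.88, and S100P, a calcium-binding protein of carcinomas, rose by 6.97 and fell by 1.5. In the other direction COL17A1 fell by 1.53 with N1-ICD and rose by 5.32 with SOX2, and DKK1, a WNT antagonist, fell by 0.68 and rose by 6.40. GJA1, the gap junction protein connexin 43, rose by 7.86 with SOX2 and fell by 0.31 with N1-ICD, and SPOCK3, a matrix proteoglycan, rose by 7.17 and fell by 0.86. Each difference had an adjusted p of 6.4e-13 or lower in edgeR's test.

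The lines started from different levels at some of these genes. COL17A1 was at 510 CPM in MB157R iEV and 0.544 CPM in MB157 iEV, and OLFM4 at 0.617 and 184 CPM. NUPR1, a stress protein that is also at the extreme, was at 0 CPM in MB157R iEV and 89.1 CPM in MB157 iEV, and it rose with both inductions, by 0.31 on the log2 scale with SOX2 and to 2.47 ± 0.534 CPM with N1-ICD. The induced genes mirrored each other: SOX2 rose by 5.43 with its own induction and fell by 1.67 with N1-ICD, and NOTCH1 rose by 4.66 with its own and fell by 1.48 with SOX2. SULT1A3, also at the extreme, had counts in 1 of the 3 iN1-ICD libraries and none in the others or in MB157R iEV, and it has a near-identical copy; without that library its log2 fold change is 0.

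**Figure D4:**
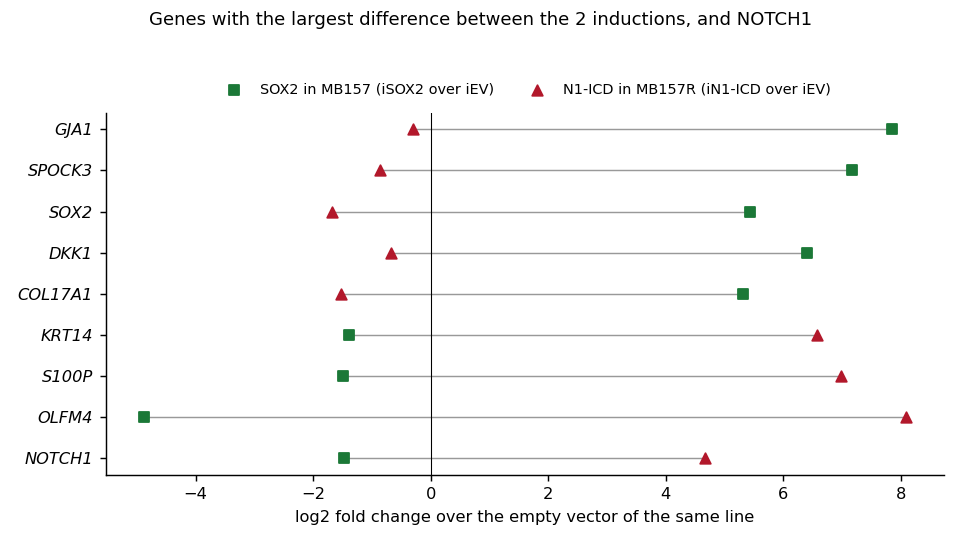
Log2 fold changes over the empty vector of the same line for the genes with the largest difference between the inductions, and for NOTCH1, with green squares for SOX2 in MB157 and red triangles for N1-ICD in MB157R; each line joins the values of 1 gene. NUPR1, which rose with both, and SULT1A3, which rests on 1 library, belong to the largest differences but are not drawn, since their fold over an iEV group at 0 cannot be measured. The symbols of the 9 drawn genes lie on opposite sides of 0, from GJA1 (7.86 with SOX2, -0.31 with N1-ICD) to OLFM4 (-4.88 and 8.09).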

How the data were processed

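Total RNA was made into stranded mRNA libraries, and 3 libraries of MB157R iN1-ICD and 3 of MB157R iEV were compared, grouped by their labels. The authors trimmed the reads with bclconvert and quantified them with STAR and Salmon in nf-core/rnaseq on hg38; the annotation release is not given in the sources used here. The deposited estimated counts are unscaled and hold 29744 entries, with 88% of values whole (within 1e-06). The deposited log2 values were made by the authors from these counts with TMM factors (edgeR 3.42.4) and voom (limma 3.56.2) in batches of 6 libraries, after removal of pseudogenes, uncharacterized genes and those averaging less than 2 TPM or fewer than 5 counts. They were used to define the 11210 tested genes and were recomputed from the counts to within 5e-14. Because Salmon divides shared reads, near-identical genes such as the KRT6, HLA and KRTAP copies are uncertain.

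Here the estimated counts were rounded to whole numbers and tested with edgeR 4.0.16 in R 4.3.3 (glmQLFit, glmQLFTest, TMM factors, library size over all entries), with Benjamini-Hochberg adjustment over the tested genes and calls at an adjusted p under 0.05. The biological coefficient of variation was 0.0549. The comparison of inductions was an interaction contrast in 1 fit over 12 libraries. CPM are not per length, so levels were not compared between genes. A gene with no count in a group was given a bound against 3 counts over that group; list medians with those genes at their bounds were the same. The scripts were tested on simulated counts.

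The genes and lists described were chosen with earlier results of these data known. Genes were named if the study names them; if among the 15 largest rises or falls in fold at 10 CPM or more, or the 5 largest in CPM; if among the 4 largest rises or falls of a list at 1 CPM or more, or its most abundant member; or if among the 5 largest differences between inductions in either direction at 10 CPM or more. DLL4, IL8, WARS, CTGF, KRT6A, KRT6C, KRT8, ELF3, KLF5 and OVOL2 fall outside this rule and were named after their values were seen. Some genes that the rule selects are not reported here. The alternatives tried were RLE factors, library totals alone, 2 wider filters, limma-voom 3.58.1, DESeq2 1.42.0, a fit over 12 libraries, a replicate block and leaving out each library.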

Additional observations from a re-analysis of the deposited data

Results flagged for a closer look

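Entries that the authors' filter removed, and that no comparison of 11210 genes used, carried signal in the same libraries. Of 4786 such entries with a mean count of at least 5, 904 were called at least 2-fold higher after induction and 99 at least 2-fold lower in edgeR's quasi-likelihood test with Benjamini-Hochberg adjustment. Of these, 83 and 22 carry a symbol that RefSeq lists only as a synonym. Among the entries outside the table PVRL4, the nectin-4 gene under an older symbol, was at 27.3 CPM in iN1-ICD and 1.83 CPM in iEV, MFI2 (melanotransferrin) at 335 and 170 CPM, FYB, an adaptor of immune cells, at 24.6 and 6.07 CPM, and the matricellular gene NOV at 21.1 and 44.4 CPM. These 4 genes were picked after their values were seen.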

How the results depend on the processing

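Which genes entered the test moved the counts most. Against 502 genes at least 2-fold higher and 77 at least 2-fold lower, a test of all entries with a mean count of at least 5 gave 1382 and 182, and a test of every entry with a count gave 1576 and 203, since both test more genes, most of them scarce. No other alternative moved a main count by over 1.5 times. Leaving out each library in turn gave 2974 to 3234 genes higher, 2836 to 3093 lower, 486 to 519 and 70 to 85 beyond 2-fold, a NOTCH1 log2 fold change of 4.57 to 4.82 and a SOX2 log2 fold change of -1.76 to -1.61. The replicate numbers do not pair the libraries: same-numbered deviations correlated at -0.0292, 0.0457 and -0.118. With the number as a block 3268 genes rose, 3154 fell, 503 and 77 passed 2-fold and 6102 responses differed between inductions. Over 397 named and called genes, 5458 of 5557 pairs of gene and alternative kept the call, 99 lost it and 0 reversed, in 23 genes. With the wider filters the medians of collagens, matrix metalloproteinases, mesenchymal genes, and serpins and S100 proteins, among others, turned from negative to positive. DNA replication genes called lower went from 12 to 7 in DESeq2 and without iN1-ICD or iEV replicate 2. Genes under 1 CPM have few counts, so their folds are imprecise.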

Other observations

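Gene groups that no comparison turned on moved less or in both directions. Of 19 epithelial serpin and S100 genes 9 rose and 9 fell: S100A9, a calprotectin chain, was at 120 CPM after induction and 12.8 CPM in the control, and S100A6 was at 129 and 310 CPM. YAP and TEAD target genes had 11 of 25 higher and 8 lower, with ANKRD1 at 243 and 26.5 CPM. FGFBP1, which releases FGF from the matrix, went from 10.1 to 126 CPM. Collagens had 5 of 19 higher (3 without iN1-ICD replicate 2) and 9 lower. Genes around MYC and the D cyclins had 6 of 13 higher and 4 lower.

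Metabolic groups had more members lower than higher, where 29.3% of all tested genes fell and 29.8% rose. Among them ribosome biogenesis genes, at 37.7% lower, stood nearest to that share. NRF2 target and glutathione genes had 17 of 31 lower and 5 higher, cholesterol genes 13 of 30 lower and 6 higher, fatty acid genes 13 of 30 lower and 8 higher, and ribosome biogenesis genes 23 of 61 lower and 6 higher. CPT1A, which carries fatty acids into mitochondria, went the other way, from 6.72 to 22.7 CPM. HOX and IRX genes had 12 of 33 lower, at 36.4% also near that share, and 3 higher (5 without iEV replicate 2). Metallothionein and metal transport genes had 11 of 20 higher and 6 lower, and retinoic acid and aldehyde dehydrogenase genes 10 of 29 higher and 8 lower. Heat shock genes had 6 of 16 higher and 3 lower, in a list that does not hold HSPA6, described above. Its members outside the filtered set, HSPB8 and CRYAB, named after their values were seen, were called higher, at 0.637 and 0.455 CPM in iN1-ICD. Neuronal markers, a check on other cell types, had a summed level of 205 to 217 CPM in iN1-ICD and 248 to 257 CPM in iEV.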
